A study of Mus musculus with 22 samples.

Results

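The 10 genes described here carry out MHC class I antigen presentation, by which a cell shows fragments of its own proteins to CD8+ T cells. They were chosen by name among the 44792 genes of the deposited count table, and all 10 were found and passed the filter on low counts. They are the heavy chains H2-D1 and H2-K1, the light chain B2m, the peptide transporter genes Tap1 and Tap2, the loading factor gene Tapbp, the immunoproteasome subunits Psmb8, Psmb9 and Psmb10, and the regulator Nlrc5.

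In the class I pathway, proteasomes cut cytosolic proteins into peptides, and the TAP transporter moves the peptides into the endoplasmic reticulum. There tapasin, the product of Tapbp, holds empty heavy chain and beta-2-microglobulin at the transporter until a peptide binds, and the complex then goes to the cell surface. Interferons induce most of these genes, including the immunoproteasome subunits, which take the place of constitutive catalytic subunits, and NLRC5 is a transactivator that acts at class I promoters. Neural retina is known for low class I display at rest.

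RNA was sequenced from bulk cells of C57BL/6 mouse retina in 4 groups. Müller cells, the radial glia of the retina, were sorted by flow cytometry from Rlbp1-GFP mice, in which a green fluorescent reporter follows the Müller glial gene Rlbp1. They came from mice of 2 to 3 months whose eyes had been injected with NMDA, a glutamate receptor agonist toxic to neurons of the inner retina, with collection 2 days later (3 libraries), from aged mice of 1.5 years (2 libraries), and from young mice of 2 to 3 months (2 libraries), for which the labels name no injection. Retinal progenitor cells (RPCs) came from embryos at day 12.5 (3 libraries), and the labels name no reporter or sort for them. DNA methylation in CpG-rich fragments was measured by reduced representation bisulfite sequencing (RRBS) on 3 further libraries of each group. Nothing in the labels says how many animals were pooled in a library.

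RNA libraries held 10149390 to 36486072 counts. The young libraries had 13913 and 14919 genes with a count, against 20920 to 23618 in the other libraries, and 18 genes were at 0 in all young and RPC libraries while reaching at least 10 CPM (counts scaled to a common library total of 1000000) in all NMDA and aged libraries, among them the housekeeping genes Rps2 and Eif4e. No class I member was among these. The label of Müller cells was checked against 15 Müller glia markers, whose summed level was 22039 to 28876 CPM in NMDA cells, 56007 and 56570 CPM in aged cells, 2466 to 2495 CPM in RPCs, and 58755 and 68579 CPM in young cells. The 2 young libraries are the baseline of 3 of the 4 comparisons below, so those comparisons share their error.

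Of the 10 members, 7 lie on mouse chromosome 17, 1 on chromosome 2 and 2 on chromosome 8 (RefSeq, build GRCm38.p6). Psmb9 (chr17:34182030-34187330), Tap1 (chr17:34187556-34197225), Psmb8 (chr17:34198195-34201454) and Tap2 (chr17:34204479-34216321) lie side by side within 34292 bp of the major histocompatibility complex. Tapbp (chr17:33919478-33929290), H2-K1 (chr17:33996012-34000619) and H2-D1 (chr17:35263094-35267497) lie outside that cluster. B2m (chr2:122147687-122153082), Nlrc5 (chr8:94434335-94527272) and Psmb10 (chr8:105935728-105938392) lie elsewhere. Another annotated gene overlaps B2m (Patl2), Tapbp (Gm19412) and Nlrc5 (3 genes), and the strand setting of the counting is not given in the sources used here, so reads of such pairs cannot be told apart. H2-D1 and H2-K1 are close paralogs, and how reads shared between them were counted is likewise not given.

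RefSeq promoter sequences, 250 bases before to 50 after the start, were matched for 8 members and not for Tap2 and Nlrc5. Those of H2-D1 (chr17:35262844-35263143, plus strand), H2-K1 (chr17:34000298-34000597, minus strand), B2m (chr2:122147437-122147736, plus strand) and Tap1 (chr17:34187306-34187605, plus strand) are shown. These 4 genes rose together after NMDA, and each promoter holds a match to the X2 core and to the Y box letters given below. Other members went the other way. Psmb9 holds the same X2 and Y bases as Tap1 and did not pass (log2 0.67, edgeR adjusted p = 0.32). Tapbp rose without an X2 match. Whether the motifs bear on the rise was not tested. Capitals mark matches to any of the motifs given below, and each sequence runs 5′ to 3′ on the strand of its gene.
H2-D1: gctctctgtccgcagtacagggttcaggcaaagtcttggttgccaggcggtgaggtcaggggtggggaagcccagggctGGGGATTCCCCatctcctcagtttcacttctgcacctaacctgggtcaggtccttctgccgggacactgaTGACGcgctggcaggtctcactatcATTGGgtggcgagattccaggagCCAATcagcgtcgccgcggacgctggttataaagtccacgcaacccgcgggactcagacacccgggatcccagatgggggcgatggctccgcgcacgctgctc
H2-K1: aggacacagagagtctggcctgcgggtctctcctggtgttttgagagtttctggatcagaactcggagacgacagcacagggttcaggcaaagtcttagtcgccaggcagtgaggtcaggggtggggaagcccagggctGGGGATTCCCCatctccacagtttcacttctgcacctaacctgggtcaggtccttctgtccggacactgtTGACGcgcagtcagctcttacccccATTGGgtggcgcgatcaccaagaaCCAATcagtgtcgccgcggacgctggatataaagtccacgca
B2m: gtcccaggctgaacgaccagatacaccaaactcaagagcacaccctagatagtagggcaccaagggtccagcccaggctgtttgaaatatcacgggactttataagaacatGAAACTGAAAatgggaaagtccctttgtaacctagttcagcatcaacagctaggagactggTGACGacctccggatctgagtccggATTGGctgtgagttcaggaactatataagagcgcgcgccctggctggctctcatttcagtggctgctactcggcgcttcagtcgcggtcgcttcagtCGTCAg
Tap1: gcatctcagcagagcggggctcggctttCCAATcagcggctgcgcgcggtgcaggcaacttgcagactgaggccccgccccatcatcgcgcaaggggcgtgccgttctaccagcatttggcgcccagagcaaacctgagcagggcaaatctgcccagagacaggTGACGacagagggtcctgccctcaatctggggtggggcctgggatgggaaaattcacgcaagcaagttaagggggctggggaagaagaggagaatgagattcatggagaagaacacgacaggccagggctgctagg

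The motifs were searched on both strands. The core of the X2 box, TGACG, was found in 5 of the 8 promoters (B2m, H2-D1, H2-K1, Psmb9 and Tap1) and in 21.0% of all 27025 promoters of the same length. The Y box letters, CCAAT, were found in 6 of 8 (those 5 and Tapbp), against 37.9% of all. In H2-D1, H2-K1 and B2m a Y match follows an X2 match. In Tap1 the Y match begins 222 bases before the start and the X2 match 86 before it. X and Y boxes are the elements to which the RFX, CREB and NF-Y factors bind and NLRC5 is recruited. The interferon-stimulated response element was searched as GAAA, any 2 bases and GAAA again. In that form it was found only in B2m among the 8, against 3.49% of all promoters. The gamma-activated site TTCNNNGAA was found only in Psmb8, against 8.47%. Variants of these 2 patterns were not searched, so a promoter without a match may still hold such an element. A kappaB palindrome of 11 letters, which was added after the promoters had been read and begins 171 bases before the start in H2-D1 and 111 before it in H2-K1, was found in these 2 and in 6 promoters of all (0.0222%). The H2-D1 and H2-K1 promoters were identical at 214 of 239 aligned bases (89.5%), with the shared elements 60 bases nearer the annotated start in H2-K1. Psmb9 and Tap1 run head to head with 225 bp between them, so the Tap1 sequence also holds the promoter of Psmb9 on the other strand. Their X2 match (chr17:34187470-34187474) and their Y match (chr17:34187334-34187338) are the same bases, so each is 1 site counted for both genes. A match is a description of these letters and not a binding site.

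After NMDA, 6 of the 10 class I genes rose relative to young cells and none fell: B2m, Nlrc5, H2-D1, Tap1, H2-K1 and Tapbp (edgeR quasi-likelihood test, adjusted p under 0.05). Over all 18931 genes tested, 30.6% rose and 14.3% fell. The members' median log2 change was 0.86, against 0.26 over all genes. In all 10 members every NMDA library lay above both young libraries, which held for 37.1% of all genes, and 21.3% lay the other way. The 4 that did not pass were Tap2 and the 3 immunoproteasome genes. In bulk libraries, fewer cells of a type and less RNA per cell cannot be told apart.

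**Figure D1:**
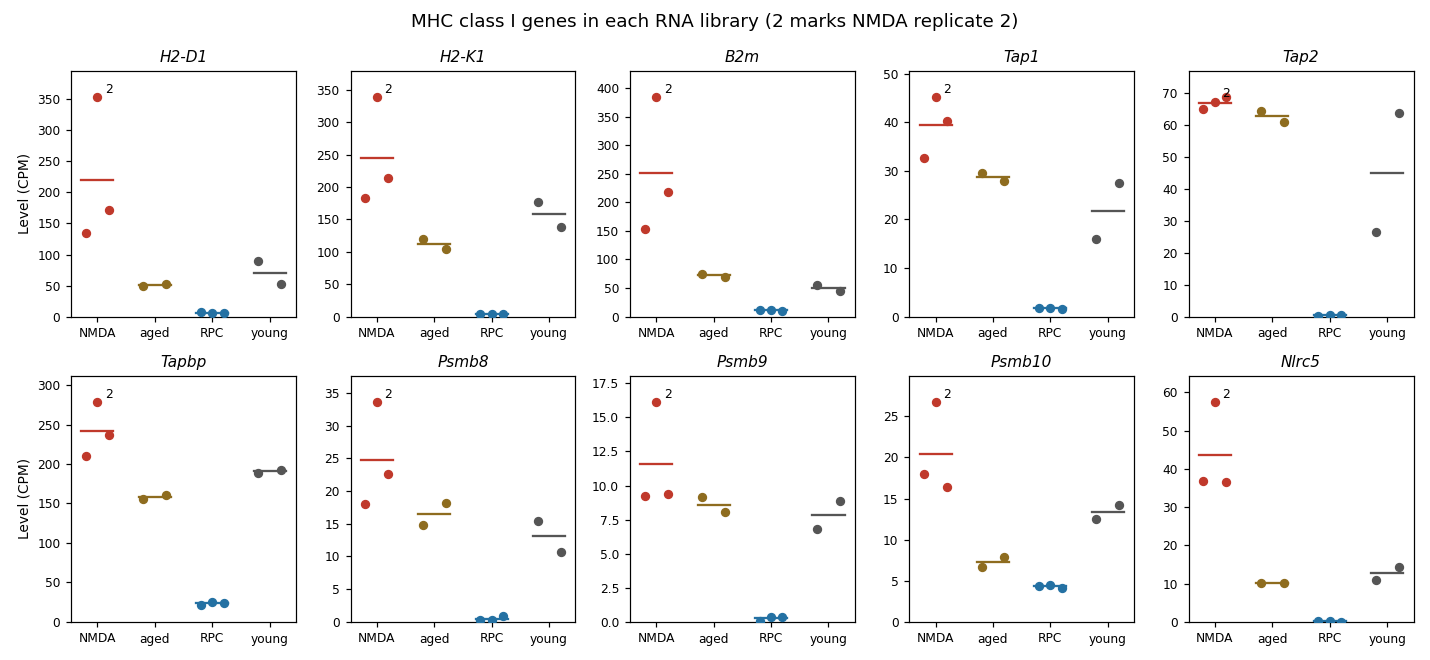
Level of each class I gene in CPM (vertical axes, each starting at 0) in the 10 RNA libraries, by group. Points are libraries, bars are group means, and the digit 2 marks NMDA replicate 2. In 9 of the 10 panels NMDA replicate 2 is the highest library, and the RPC points lie below those of the other groups in all 10.

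The class I complex itself is a heavy chain bound to B2m. B2m stood at 153, 384 and 218 CPM in NMDA cells and at 55.4 and 45.2 CPM in young cells. It rose 5.40-fold, the largest fold among the members (log2 2.43 ± 0.36 SE, edgeR adjusted p = 0.00094). The lowest NMDA library was 2.77 times the higher young one.

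H2-D1, a classical heavy chain gene, stood at 135, 354 and 171 CPM in NMDA cells against 89.3 and 52.5 CPM in young cells. Its rise was 3.33-fold (log2 1.74 ± 0.42, edgeR adjusted p = 0.0094). H2-K1, the other classical heavy chain gene here, stood at 184, 339 and 214 CPM in NMDA cells against 177 and 139 CPM in young cells, and rose less, by 1.67-fold (log2 0.74 ± 0.25, adjusted p = 0.038). For both genes NMDA replicate 2 stood well above its group, and for H2-K1 the lowest NMDA library was only 1.04 times the higher young one. H2-K1 did not pass without NMDA replicate 2 (log2 0.44, adjusted p = 0.058) or without young replicate 2 (log2 0.57, adjusted p = 0.12).

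For peptide transport and loading, Tap1, which encodes a subunit of the transporter, stood at 32.6, 45.2 and 40.2 CPM in NMDA cells against 16.0 and 27.5 CPM in young cells. It rose 1.96-fold (log2 0.97 ± 0.25, edgeR adjusted p = 0.013). Tap2, the other subunit, stood at 65.1, 67.3 and 68.8 CPM in NMDA cells against 26.4 and 63.7 CPM in young cells and did not pass (log2 0.69 ± 0.31, adjusted p = 0.10). The 3 NMDA values of Tap2 were close together, and the spread was between the young libraries: the log2 change was 0.21 without young replicate 1 and 1.44 without young replicate 2 (adjusted p = 7.3e-05). Tapbp stood at 210, 278 and 237 CPM in NMDA cells against 189 and 192 CPM in young cells. Its rise was 1.37-fold (log2 0.45 ± 0.12, edgeR adjusted p = 0.016).

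The immunoproteasome genes had higher means in NMDA cells, but none passed. Psmb8 stood at 18.0, 33.5 and 22.5 CPM in NMDA cells against 15.4 and 10.7 CPM in young cells (log2 1.02 ± 0.46, edgeR adjusted p = 0.10). Psmb9 stood at 9.26, 16.1 and 9.35 CPM in NMDA cells against 6.84 and 8.87 CPM in young cells (log2 0.67 ± 0.51, adjusted p = 0.32). Psmb10 stood at 18.0, 26.7 and 16.4 CPM in NMDA cells against 12.6 and 14.2 CPM in young cells (log2 0.72 ± 0.29, adjusted p = 0.075). In all 3 genes NMDA replicate 2 was the highest library. The mean of the other 2 NMDA libraries was 1.55 times the young mean for Psmb8, 1.18 for Psmb9 and 1.29 for Psmb10. Psmb8 passed without young replicate 1 (adjusted p = 0.037) and Psmb10 without young replicate 2 (adjusted p = 0.047).

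Nlrc5, the transactivator of class I genes, stood at 36.9, 57.4 and 36.5 CPM in NMDA cells against 10.9 and 14.4 CPM in young cells. It rose 3.73-fold (log2 1.90 ± 0.45, edgeR adjusted p = 0.0090). Its lowest NMDA library was 2.54 times the higher young library, a gap second only to that of B2m among the members.

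NMDA replicate 2 is the library richest in microglia and macrophage transcripts, and its weight was measured gene by gene. The 20 markers of these cells summed to 516, 5084 and 1042 CPM in the 3 NMDA libraries, 167 and 190 CPM in aged cells, 109 to 135 CPM in RPCs, and 30.7 and 162 CPM in young cells. The 10 class I genes summed to 862, 1602 and 1034 CPM in NMDA cells, 533 and 520 CPM in aged cells, 51.3 to 54.1 CPM in RPCs, and 598 and 569 CPM in young cells. Both sums were highest in NMDA replicate 2, but the marker sum there was 9.85 and 4.88 times that of the other NMDA libraries and the class I sum 1.86 and 1.55 times.

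Per gene, NMDA replicate 2 stood at 1.01 (Tap2) to 2.31 times (H2-D1) the mean of the other 2 NMDA libraries for the class I members, with a median of 1.61. For the microglia markers the same ratio was 2.08 to 9.36 with a median of 5.98, and over all genes the median was 0.98. B2m was 2.07 times higher in that library, Psmb9 1.73, H2-K1 1.71, Psmb8 1.66, Nlrc5 1.56, Psmb10 1.55, Tapbp 1.24 and Tap1 1.24. Lens genes were also high there: 9 lens markers summed to 1168 CPM in NMDA replicate 2 and to 42.5 and 64.0 CPM in the other 2.

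**Figure D2:**
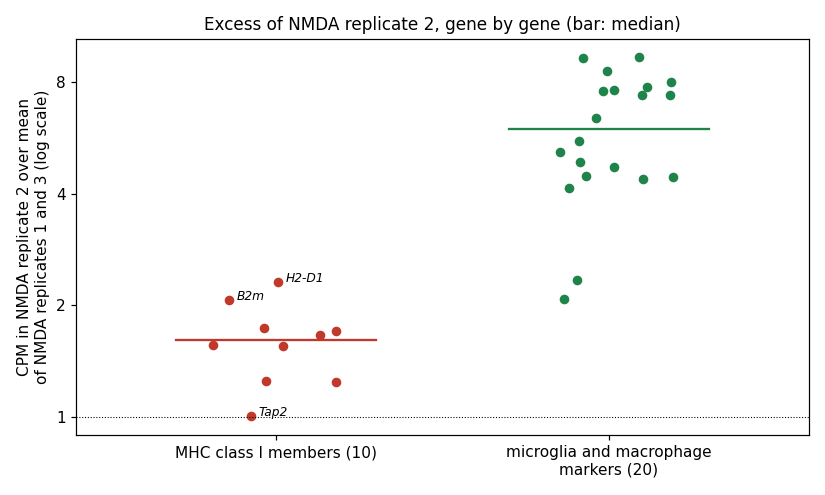
Level in NMDA replicate 2 divided by the mean of NMDA replicates 1 and 3 (vertical axis, log scale) for the 10 class I members and 20 microglia and macrophage markers. Each point is a gene and bars are medians, 1.61 for the members and 5.98 for the markers.

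Without NMDA replicate 2, 5 of the 10 members rose (B2m, Nlrc5, H2-D1, Tap1 and Tapbp), against 27.3% of all genes, and none fell, against 11.7% of all genes. For all 10 members both remaining NMDA libraries lay above both young libraries. This follows from the order of all 3 NMDA libraries given above and adds no further test. B2m then rose 3.97-fold (log2 1.99), Nlrc5 3.13-fold (log2 1.65, edgeR adjusted p = 0.041), H2-D1 2.31-fold (log2 1.21, adjusted p = 0.011), Tap1 1.81-fold (log2 0.86, adjusted p = 0.042) and Tapbp 1.26-fold (log2 0.34, adjusted p = 0.026). The members' median log2 change was 0.71 without the library, against 0.21 over all genes. H2-K1 then had a 1.35-fold change that did not pass.

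A fit that added the log2 summed marker level as a covariate gave smaller changes and no call among the members. In edgeR 0 of 10 passed, 1 had an unadjusted p under 0.05, and DESeq2 was not run with this covariate. Over all 18931 genes that fit called 2730 higher and 659 lower, against 5795 and 2702 without the covariate. B2m had a log2 change of 1.30 ± 0.54 (adjusted p = 0.14), Nlrc5 1.04 ± 0.69 and H2-D1 0.73 ± 0.79, and the median over the members was 0.13. In that fit 8 members kept a positive sign, and Tap2 (log2 -0.01) and Psmb9 (log2 -0.33) did not. All 3 NMDA libraries had a higher marker sum than the other 7 libraries, so the marker level and the NMDA treatment cannot be told apart by such a fit.

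**Figure D3:**
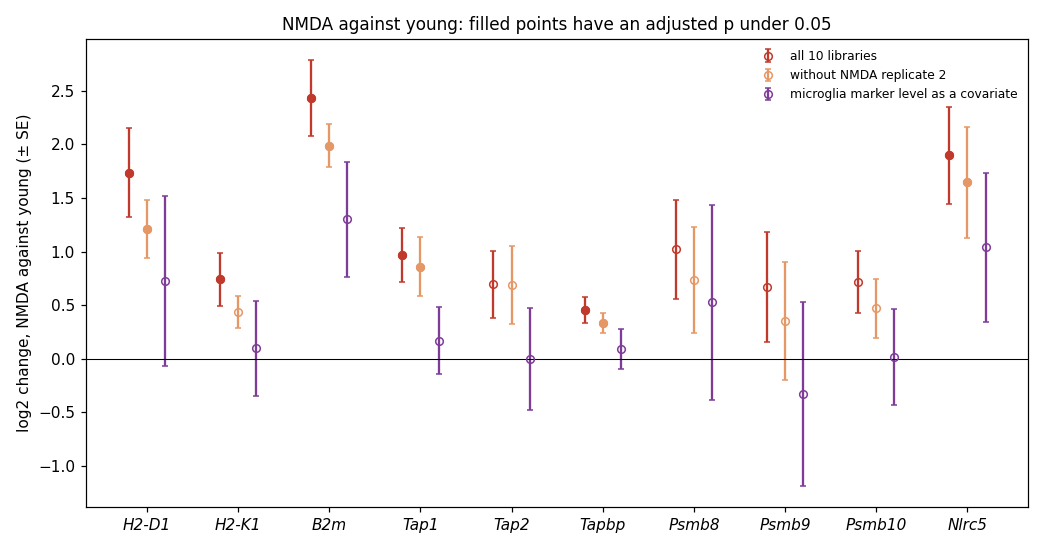
Log2 change of each class I gene in NMDA against young cells (vertical axis, bars are ± SE) from all 10 libraries, without NMDA replicate 2, and with the microglia marker level as a covariate. Filled points have an adjusted p under 0.05: 6, 5 and 0 genes.

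The markers themselves did not move as 1 block. Of the 20, 15 rose after NMDA and none fell, against 30.6% and 14.3% of all genes. Without NMDA replicate 2, 10 rose and 1 fell, against 27.3% and 11.7% of all genes. Csf1r, a receptor of microglia and macrophages, stood at 36.4, 375 and 60.6 CPM in NMDA cells against 0 and 7.29 CPM in young cells, and rose (edgeR adjusted p = 0.016; without NMDA replicate 2 log2 3.90, adjusted p = 0.053). Ptprc, the pan-leukocyte marker CD45, stood at 8.76, 111 and 15.0 CPM in NMDA cells and was at 0 in both young libraries. The microglial genes P2ry12 and Tmem119 did not pass: P2ry12 stood at 2.39, 13.3 and 3.23 CPM in NMDA cells against 6.31 and 19.3 CPM in young cells. Tmem119 stood at 1.20, 5.67 and 1.34 CPM in NMDA cells against 0 and 8.57 CPM in young cells, and Cx3cr1 at 4.60, 26.5 and 7.46 CPM against 0 and 24.2 CPM. Young replicate 1 was thus at 0 for 4 of the 5 defining markers and young replicate 2 only for Ptprc.

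Class II genes, which antigen-presenting cells such as macrophages express, summed to 51.4, 280 and 47.9 CPM in NMDA cells and 9.67 and 2.36 CPM in young cells. Cd74, the class II invariant chain, stood at 20.5, 126 and 20.6 CPM in NMDA cells and was at 0 in both young libraries, as were H2-Aa and H2-Ab1. Of 6 class II genes tested 4 rose and none fell, against 30.6% and 14.3% of all genes. Young libraries held zeros in other lists too: 8 of 11 vascular markers were at 0 in each, against 0 or 1 in each NMDA and aged library. A rise from 0 is thus uncertain, for these genes and for others named here at 0 in a young library. What set the zeros was not tested. The 12 lymphocyte markers summed to 0.756, 1.01 and 0.445 CPM in NMDA cells and 5.20 and 0 CPM in young cells. The part of microglia, macrophages and lens cells in the class I change was not tested beyond these values.

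Of 12 genes for peptide loading and trimming, 8 rose and none fell, against 30.6% and 14.3% of all genes, with a median log2 change of 0.73 against 0.26 over all genes. Without NMDA replicate 2, 6 of the 12 rose and none fell. The chaperone genes Calr, Canx and Pdia3, which fold and load class I molecules, rose by log2 0.95 ± 0.22, 0.90 ± 0.18 and 1.10 ± 0.14 (edgeR adjusted p = 0.0083, 0.0047 and 0.00053). Psme1, a subunit of the proteasome activator PA28, rose by log2 0.73 ± 0.15 (adjusted p = 0.0043), while its partner Psme2 stood at 21.99, 30.1 and 20.2 CPM in NMDA cells against 42.2 and 12.7 CPM in young cells and did not pass. The trimming peptidase gene Erap1 (log2 0.43 ± 0.19, adjusted p = 0.096) and the tapasin relative Tapbpl (log2 -0.03 ± 0.43, adjusted p = 0.97) did not pass. Pomp, the proteasome maturation factor, had the smallest adjusted p of that list (log2 2.16 ± 0.15, adjusted p = 2e-05).

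The 3 constitutive catalytic proteasome subunits rose after NMDA. Psmb5, which PSMB8 replaces, stood at 41.9, 46.8 and 39.5 CPM in NMDA cells against 8.81 and 7.59 CPM in young cells (log2 2.49 ± 0.18, edgeR adjusted p = 2.5e-05). Psmb7, the partner of Psmb10, stood at 54.5, 65.4 and 49.9 CPM against 21.9 and 35.6 CPM (log2 1.09 ± 0.23, adjusted p = 0.0051), and Psmb6, the partner of Psmb9, rose by log2 0.37 ± 0.12 (adjusted p = 0.032), and by a similar 0.35 without NMDA replicate 2 (adjusted p = 0.071). Among 11 other core subunits 4 rose and none fell, against 30.6% and 14.3% of all genes. 1 of the 4 is not a safe call: Psma6, another core subunit, stood at 59.2, 70.2 and 48.9 CPM in NMDA cells and was at 0 in both young libraries, as were Rps2 and Eif4e. Whether the counts of all groups were made with the same annotation is not given in the sources used here, and what set these zeros was not tested.

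The ratio of Psmb8 to Psmb5 counts, in which gene length cancels between libraries, was 0.429, 0.716 and 0.570 in NMDA cells, against 1.75 and 1.42 in young cells. The groups did not overlap, and the mean log2 ratio differed by -1.49 (two-sided exact permutation p = 0.1, the smallest that 3 against 2 libraries allow; 0.3 adjusted over 3 ratios). Psmb9 to Psmb6 was 0.104, 0.181 and 0.115 in NMDA cells against 0.0890 and 0.132 in young cells, which overlap (difference 0.25, exact p = 0.6). Psmb10 to Psmb7 was 0.331, 0.409 and 0.329 in NMDA cells against 0.574 and 0.399 in young cells, which overlap as well (difference -0.43, exact p = 0.3). The sign of the Psmb9 to Psmb6 difference turned without young replicate 1 (-0.03).

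**Figure D4:**
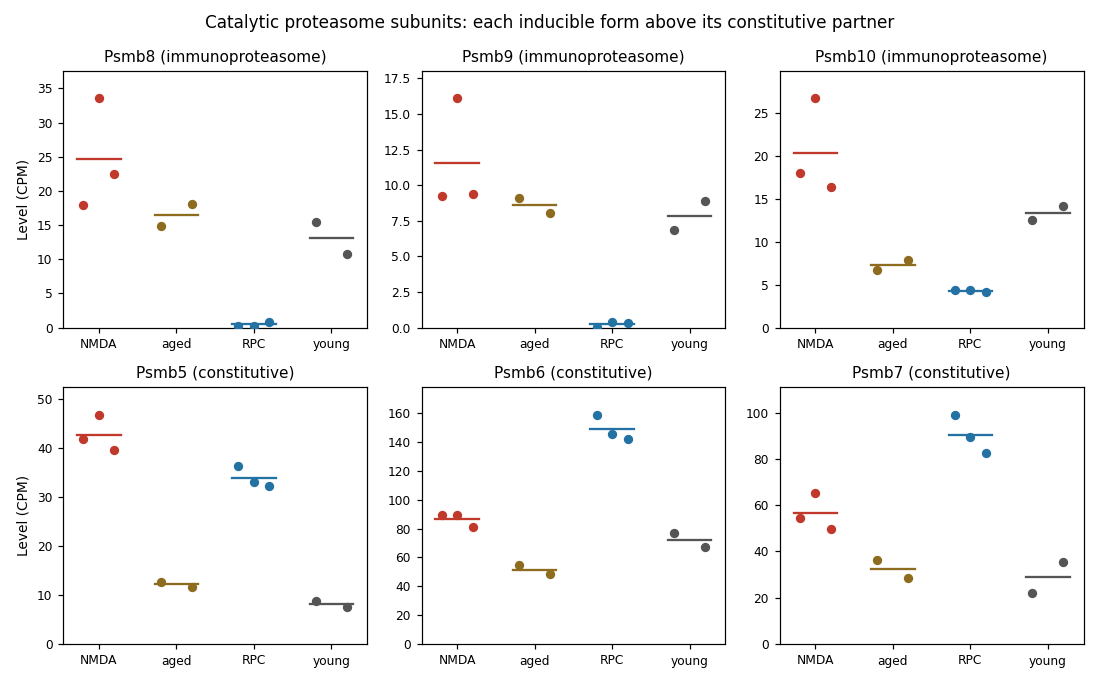
Level in CPM (vertical axes, each starting at 0) of the 3 immunoproteasome genes (top) and their constitutive partners (bottom) by library, with bars for group means. In RPCs the immunoproteasome genes lie at or below 4.43 CPM, while the constitutive genes lie between 32.2 and 159 CPM.

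Of 17 interferon receptor and signalling genes 5 rose and 3 fell after NMDA, against 30.6% and 14.3% of all genes, so the counts were near the background. Irf9, a transcription factor of the type I interferon response, rose by log2 1.11 ± 0.24 (edgeR adjusted p = 0.0059). Irf1, a direct activator of Tap1 and Psmb9, stood at 39.7, 52.3 and 48.0 CPM in NMDA cells against 88.9 and 40.8 CPM in young cells and did not pass. Ifngr1, the ligand-binding receptor chain for interferon gamma, fell (log2 -0.67 ± 0.22, adjusted p = 0.038), and Ifngr2 did not pass (log2 1.16 ± 0.64).

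Ifng itself was at 0 counts in all 10 libraries, and 3 counts of the smallest library would be 0.296 CPM. Of 20 interferon-stimulated genes 6 rose and 1 fell, near the all-gene shares of 30.6% and 14.3%, with a median log2 change of 0.76 against 0.26 over all genes. Gbp2, an interferon-induced GTPase gene, stood at 79.0, 116 and 98.2 CPM in NMDA cells against 0 and 3.65 CPM in young cells. Ifit3 rose by log2 1.15 ± 0.22 (adjusted p = 0.0035). Of 12 promoter factors 3 rose and 1 fell: Rfx5, the RFX subunit that binds the X box, fell by 0.56 on the log2 scale (adjusted p = 0.0073). The class II transactivator Ciita stood at 0.819, 1.63 and 0.557 CPM in NMDA cells and was at 0 in young cells.

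Of 13 other class I and class I-like heavy chain genes tested, 5 rose and 1 fell, against 30.6% and 14.3% of all genes. H2-Q4 stood at 33.5, 39.2 and 43.2 CPM in NMDA cells against 0 and 3.74 CPM in young cells (edgeR adjusted p = 0.011). H2-T22 (log2 0.76 ± 0.29, adjusted p = 0.062), H2-T23 (log2 0.55 ± 0.29, adjusted p = 0.16) and H2-M3 (log2 1.59 ± 1.39, adjusted p = 0.38) did not pass. These genes resemble one another in sequence, so how reads were divided among them is uncertain.

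With age, no class I member passed in either direction (edgeR; 0 at an unadjusted p under 0.05 and 0 by DESeq2), while 21.1% of all genes rose and 5.85% fell. The median log2 change of the members was 0.12, against 0.13 over all genes. B2m stood at 74.3 and 69.9 CPM in aged cells, above the young values of 55.4 and 45.2 CPM (log2 0.71 ± 0.36, adjusted p = 0.19). Psmb10 stood at 6.69 and 7.86 CPM in aged cells, below the young values of 12.6 and 14.2 CPM (log2 -0.69 ± 0.31, adjusted p = 0.15).

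The aged libraries lay above both young libraries for 2 members (B2m and Tap1) and below both for 5 (H2-D1, H2-K1, Tapbp, Psmb10 and Nlrc5), against 31.0% and 23.3% of all genes. H2-D1 stood at 48.7 and 52.1 CPM in aged cells and 89.3 and 52.5 CPM in young cells (log2 -0.31 ± 0.43). Nlrc5 stood at 10.3 and 10.1 CPM in aged cells and 10.9 and 14.4 CPM in young cells (log2 -0.12 ± 0.46). Tap1 and Tap2 depended on the baseline: without young replicate 2, Tap1 (log2 1.02, adjusted p = 0.0043) and Tap2 (log2 1.43, adjusted p = 0.00012) passed as higher in aged cells.

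Set against aged cells in place of young ones, NMDA cells had 6 members higher and none lower, against 10.5% of all genes higher and 9.80% lower. They were H2-D1 (log2 2.05 ± 0.42), Nlrc5 (2.01 ± 0.45), B2m (1.73 ± 0.34), Psmb10 (1.41 ± 0.30), H2-K1 (1.06 ± 0.25) and Tapbp (0.53 ± 0.12), with edgeR adjusted p of 0.0091 to 0.019. For 9 members every NMDA library lay above both aged libraries, which held for 36.7% of all genes, and 27.4% lay the other way. The exception was Psmb8, at 18.0 CPM in the lowest NMDA library and 18.1 CPM in the higher aged one.

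Tap2 was nearly equal in NMDA and aged cells (64.5 and 61.1 CPM in aged cells, log2 0.01 ± 0.30), and Tap1 (log2 0.38 ± 0.25) did not pass. Without NMDA replicate 2, 5 members were higher and none lower, against 7.62% of all genes higher and 7.09% lower, and Nlrc5 no longer passed although its log2 change was still 1.77 (edgeR adjusted p = 0.064). No call held without aged replicate 1 or without aged replicate 2, where 1 aged library was left and fewer of all genes passed too. In those fits the same 6 genes had log2 changes of 0.51 to 2.03 and 0.55 to 2.09. DESeq2 was not run without a library. This comparison uses the same NMDA libraries as the one with young cells, so the 2 are not independent.

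In RPCs all 10 class I genes were lower than in young Müller cells, against 24.9% of all genes lower and 35.9% higher. The median log2 change of the members was -4.36, against 0.30 over all genes. All 10 passed under every alternative run, and in every RPC library each member lay below both young libraries (23.7% of all genes, with 46.7% above both). RPCs are embryonic cells, and young Müller cells adult ones, so age and cell type cannot be told apart.

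The largest difference was in Tap2, at 0.207, 0.452 and 0.350 CPM in RPCs against 26.4 and 63.7 CPM in young cells (log2 -7.19 ± 0.43, edgeR adjusted p = 1.9e-06). Nlrc5 was at 4, 1 and 0 counts in the 3 RPC libraries (log2 -6.62 ± 0.59). H2-K1 stood at 3.86, 3.89 and 3.58 CPM in RPCs against 177 and 139 CPM in young cells (log2 -5.51 ± 0.29), and H2-D1 at 7.37, 5.78 and 6.29 CPM (log2 -3.58 ± 0.42). The RPC libraries were close to each other for these genes and far from the young ones.

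Psmb9 (log2 -5.05 ± 0.59), Psmb8 (-4.92 ± 0.53) and Tap1 (-3.79 ± 0.27) were also low. The smallest differences were in Psmb10, at 4.41, 4.43 and 4.11 CPM in RPCs (log2 -1.76 ± 0.29, edgeR adjusted p = 0.00077), in B2m, at 11.4, 12.3 and 10.6 CPM (log2 -2.27 ± 0.34), and in Tapbp, at 21.8, 24.8 and 24.3 CPM (log2 -3.15 ± 0.13). These 3 genes were well above 0 in every RPC library.

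Of the 12 loading and trimming genes 4 were higher and 3 lower in RPCs than in young cells, and of the 11 other core proteasome subunits 8 were higher and none lower, against 35.9% of all genes higher and 24.9% lower. The constitutive subunits Psmb5 (log2 1.91 ± 0.18), Psmb6 (0.92 ± 0.12) and Psmb7 (1.53 ± 0.23) were higher in RPCs than in young cells, as was Pdia3 (0.92 ± 0.14), and Calr (-0.06 ± 0.22) and Canx (0.45 ± 0.18) did not pass. The ratio of Psmb8 to Psmb5 was 0.00759, 0.00822 and 0.0271 in RPCs against 1.75 and 1.42 in young cells. Of 20 interferon-stimulated genes 18 were lower and none higher, and of 17 interferon signalling genes 12 were lower and 1 higher, against 24.9% of all genes lower and 35.9% higher. Irf1 stood at 4.89, 6.42 and 3.41 CPM in RPCs against 88.9 and 40.8 CPM in young cells (log2 -3.87 ± 0.38, edgeR adjusted p = 3.5e-05).

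Across the 10 libraries each member's log2 CPM followed the mean of the other 9, with Pearson r of 0.895 (Psmb10) to 0.992 (Nlrc5). Among 10895 other genes averaging 8 CPM or more, those closest to the members' mean standardised profile were Cp, the copper oxidase ceruloplasmin (r = 0.999), Adssl1 (0.996), Prkca (0.995), Pdpn (0.994) and Arid5b (0.994). Cp stood at 3743, 5616 and 3865 CPM in NMDA cells, 2063 and 2098 CPM in aged cells, 299.6, 276 and 307 CPM in RPCs, and 2157 and 2069 CPM in young cells. The most opposite profiles were those of Zfp422 (-0.996), Arid1a (-0.995), Ubtd2 (-0.995), Champ1 (-0.995) and Notch3 (-0.994). These r values describe 10 libraries of 4 groups and rest largely on the gap between RPCs and the other groups.

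DNA methylation was read within 1000 bp of an annotated start, or for Tap2 and Nlrc5, whose strand the annotation does not give, of the gene end with more CpG positions. The members' windows held 12 to 103 positions with at least 10 reads in all 12 RRBS libraries. For 8 members, all but Tapbp and Tap2, the windows had little methylation in every group, with the highest library value at Nlrc5 in young replicate 1: the library values were 0% to 3.00% in NMDA cells, 0% to 3.96% in aged cells, 0.184% to 3.24% in RPCs and 1.66% to 10.3% in young cells. In RPCs, where all 10 members were low in RNA, the windows of these 8 were low in methylation as well. Those of Tap2, with positions inside the gene, and of Tapbp, mostly through positions before its start, held methylation in every group. H2-K1 was at 1.21% ± 0.63 in RPCs and 3.03% ± 0.59 in young cells (SD, n = 3 each), and Psmb9 at 1.54% ± 0.62 in RPCs and 3.19% ± 0.53 in young cells.

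Against young cells, 0 members' windows passed in NMDA cells and in aged cells. A call needed an adjusted p under 0.05 in the quasi-binomial model and a difference of at least 10 points. Pooled young levels were 2.97% to 4.44% for all members but Tapbp and Tap2, so no lower call was possible for them in any comparison. Of 10511 windows, 1.31% passed as higher and 0.171% as lower in NMDA cells, and 0.371% and 0.304% in aged cells. In young cells 92.2% of all windows were under 10%, so the lower shares were limited in the same way. At an unadjusted p under 0.05 and with no minimum, 8 members differed in NMDA cells and 7 in aged cells, of which 8 and 6 were lower than in young cells. By the same rule 76.7% of all windows were lower and 3.44% higher in NMDA cells, and 85.2% were lower and 1.04% higher in aged cells, so the members' count was near the background in NMDA cells and under it in aged cells. The Psmb9 and Tap1 windows share 65 of their 65 and 66 positions, so they are 1 region counted for both genes. By exact permutation of libraries, whose smallest p is 0.1, 0 passed. Young libraries had higher values at low-methylated windows in general: the median over all windows was 0.784% to 0.859% in NMDA cells, 0.420% to 0.496% in aged cells, 0.715% to 2.14% in RPCs and 2.99% to 3.98% in young cells.

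**Figure D5:**
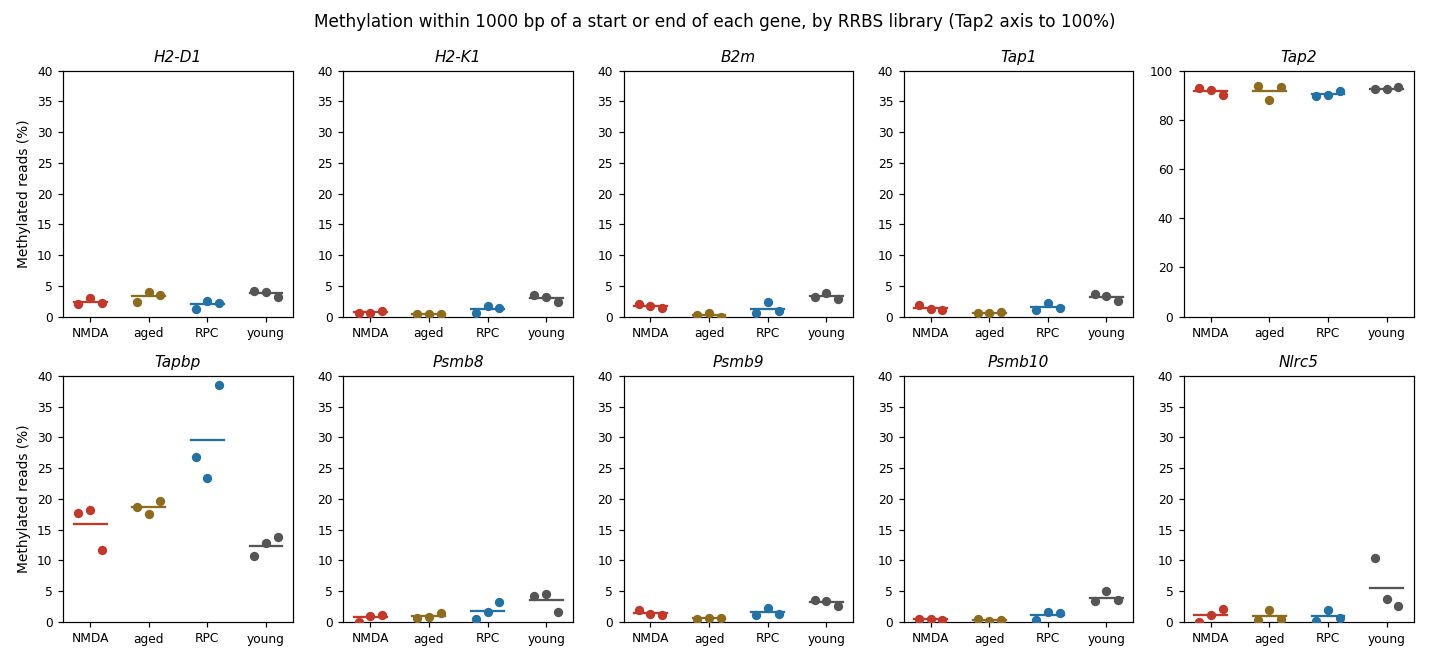
Methylated reads in percent (vertical axes, 0 to 40, and 0 to 100 for Tap2) within 1000 bp of a start or end of each class I gene in the 12 RRBS libraries, with bars for group means. Tapbp alone differs by over 10 points, in RPCs, and Tap2 lies near 90% in all groups.

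In RPCs 1 member's window passed, that of Tapbp, against 2.04% of all windows higher and 0.980% lower. Its pooled level was 31.1% in RPCs and 12.3% in young cells (18.9 points, adjusted p = 0.00016). The call does not hold position by position. The window joins positions before the start, which were methylated at 56.9% ± 6.16 in RPCs and 58.9% ± 6.33 in young cells (SD, n = 3 each), and positions after it, at 1.87% ± 0.84 and 3.76% ± 0.60. Reads on the methylated side made up 41.3% to 59.1% of the window's reads in RPCs and 10.4% to 21.2% in young cells. The mean over positions differed by -2.47 points, so the sign turned. Within 500 bp the difference was -0.92 points. That window leaves out the methylated positions, at -853 to -730 bp from the start, so it compares a different set of positions.

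The 12 positions of the Tap2 window lay inside the gene, within 1000 bp of its higher-coordinate end, and were methylated at 91.9% in NMDA cells, 91.6% in aged cells, 90.5% in RPCs and 92.9% in young cells (pooled reads). The 3 positions within 1000 bp of its other end were at 0% to 5.93% in the 4 groups. Upstream of H2-D1, 7 positions 407 to 622 bp before the start were at intermediate levels: 44.3%, 38.9% and 42.5% in NMDA cells, 28.1%, 40.6% and 32.6% in aged cells, 27.3%, 28.6% and 23.2% in RPCs, and 29.5%, 35.8% and 31.7% in young cells. These 7 positions were singled out after their values were seen, so no test was made. The NMDA libraries lay above the young ones and the RPC libraries below them there, with 132 to 645 reads per library.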

How the data were processed

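RNA was measured as deposited read counts per gene in 10 libraries, and methylation as deposited coverage and percent of methylated reads per CpG strand in 12 RRBS libraries, with no position under 10 reads. Software named, without roles, in the submitters' processing notes was methylKit 1.4.0, Bismark 0.16.3, HISAT2 2.0.4 and Trim Galore 0.4.3. How reads were counted is not given in the sources used here. Raw counts from the deposited table were the input.

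Counts were tested with edgeR 4.0.16 (quasi-likelihood, R 4.3.3, TMM scaling, filterByExpr) in 1 fit over the 4 groups with 6 residual degrees of freedom, and Benjamini-Hochberg adjustment ran over all 18931 genes. CPM values are counts divided by the library total and multiplied by 1000000. DESeq2 1.42.0, other scalings and filters, each library left out, a replicate block and a marker covariate were alternatives. Methylated reads, from the authors' percent and coverage, were pooled over windows of 1000 bp either side of a start that held at least 5 positions, and 10511 windows were tested with a quasi-binomial model. Both tests were tested on simulated data.

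The genes named beside the members are those of a fixed set and the 3 with the smallest adjusted p of a list where shown. For likeness, log2(CPM + 0.5) profiles were used. The members, lists and tests were chosen with earlier results of these data known. P-values measure only the spread between these libraries, which may be technical, since the labels do not tie libraries to animals. Counting intervals and the floor of 3 counts cover counting error only.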

Additional observations from a re-analysis of the deposited data

How the results depend on the processing

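Of the 10 class I genes, 6 rose in NMDA against young cells. With the microglia marker level as a covariate 0 passed, in a fit on only the 2 groups 2 passed, and with a minimum change of 2-fold 3 passed. Upper-quartile scaling gave 4 calls and DESeq2 gave 8. Of all genes, 2730 of 18931 rose with the covariate and 3558 of 17000 in the fit on 2 groups. With upper-quartile scaling 5094 of 18931 rose and with DESeq2 6095, against 5795 in the main fit. Leaving out an NMDA library gave 5 or 6 calls, with 5110 to 5209 of 18695 to 18810 genes higher. Leaving out a young library leaves 1 in that group, and counts of calls are not compared there. All 10 members kept a positive log2 change, of 0.21 to 2.62 without young replicate 1 and 0.45 to 2.28 without young replicate 2. In aged against young cells every fit without a library leaves 1 in a group. Without young replicate 2 the log2 change there was 1.02 for Tap1 and 1.43 for Tap2. In NMDA against aged cells the count of members higher was 5 or 6 when an NMDA library was left out. No call held there without an aged library, where fewer of all genes passed too. In RPCs it stayed at 10 lower under every alternative run. The log2 Psmb9 to Psmb6 difference was -0.034 without young replicate 1, over a range of -0.034 to 0.54. The methylation call of Tapbp in RPCs was absent within 500 bp (0 calls, difference -0.92 points), where the methylated positions before the start are left out. Exact permutation of libraries over positions, whose smallest p is 0.1, could give no call, and the difference there was -2.47 points. The read shares on the 2 sides of the Tapbp start are given above, and why they differ was not tested.

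Replicate numbers did not pair the libraries, with correlations of -0.05 to 0.04 between same-numbered deviations. With a replicate block 5 members rose in NMDA against young cells, 5 were higher in NMDA against aged cells and 10 were lower in RPCs.

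Scaling moved the level of all genes: the median log2 change in NMDA against young cells was 0.26 with TMM, 0.20 with RLE and 0.04 with upper-quartile factors, which gave 5094 genes higher and 3825 lower, against 5795 and 2702 with TMM. With 2 young and 2 aged RNA libraries, 1 library can decide a call.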
